A study of Rattus norvegicus with 9 samples.

Results

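The 38 genes described here encode heat shock chaperones of the cytosol and the mitochondria, their cochaperones and the heat shock factors Hsf1 and Hsf2. A probe set, the group of short probes that reports 1 transcript on the array, was taken for a gene where the platform annotation gave exactly that gene symbol and no other. Of the probe sets of 1 gene, the one with the highest mean signal stood for it. Of the 38 genes, 35 had such a probe set, among 14217 genes on the array, and 32 of them lay at or above the filter on dim probe sets, among 10432 genes. Hspa1b, Hspa8 and Hsp90aa1 were on the array only in probe sets that carry several gene symbols, so no value is given for them. Hspa1l, Hspa2 and Hspa12a were dim, with mean signals at percentiles 0.7, 6.0 and 21.0 of all probe sets, and were not tested.

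Liver RNA was measured on 1-colour Affymetrix rat arrays. The animals were 36 Wistar rats of 180 to 220 g, all labelled male, allotted by chance to a drug group given 7-P, a model group and a control group, with 12 rats in each. From each group 3 rats were arrayed, 1 array per rat, so that 9 arrays entered every fit. How the model was made, whether the drug rats had the same treatment, and the nature of 7-P are not stated in the sources used here.

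Chaperones bind unfolded proteins and let them fold, or pass them on for degradation. HSP70 proteins do this in cycles of ATP use that J-domain proteins start and nucleotide exchange factors such as the HSP110 proteins end, and HSP90 with its cochaperones takes over clients such as steroid receptors and kinases. When unfolded proteins accumulate, heat shock factor 1 binds heat shock elements, repeats of GAA and its reverse complement TTC, in the promoters of many of these genes and switches them on. The response is found in nearly all cells, hepatocytes among them.

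The promoters of the genes the results turn on are shown first, since heat shock elements are what many of these genes share on the DNA. RefSeq promoter sequences of the GRCr8 assembly were held for 29 of the 38 genes, and in each the 250 bases before the transcript start that the sequence is built on were searched on both strands. A pair of facing units, TTCNNGAA or GAANNTTC, was present in the windows of 15 of the 29 chaperone genes, or 51.7%, and in 13.5% of all 33469 rat promoter windows. In 4 of these 15, Hspa2, Hspa9, Hspb8 and Hspd1, the match lay within the annotated span of the gene itself, so it is not before the outermost annotated start. Among 12 promoters of chaperone genes counted as heat-inducible, that of Hsp90ab1 included, 9 held it, and among the other 17 promoters 6 did. A run of at least 3 units, GAANNTTCNNGAA or TTCNNGAANNTTC, which contains the shorter pair, was in the windows of Hspa8, Hspd1, Hspe1 and Hsph1 and in 0.663% of all windows. Capitals mark the matches in the sequences below, each read 5′ to 3′ in the direction of its gene. A match is only a run of letters in the sequence and does not show that a factor binds there.
Fkbp4, chr4:163398037-163398066, minus strand: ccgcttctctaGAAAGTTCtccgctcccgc
Dnajb1, chr19:41431142-41431177, minus strand: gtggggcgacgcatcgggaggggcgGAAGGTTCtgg
Bag3, chr1:192533303-192533360, plus strand: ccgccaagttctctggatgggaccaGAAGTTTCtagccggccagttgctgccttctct
Hsph1, chr12:10427238-10427367, plus strand: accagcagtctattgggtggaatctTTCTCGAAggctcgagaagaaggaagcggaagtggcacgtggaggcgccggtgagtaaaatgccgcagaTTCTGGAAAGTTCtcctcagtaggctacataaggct
Hspb1, chr12:26432378-26432455, minus strand: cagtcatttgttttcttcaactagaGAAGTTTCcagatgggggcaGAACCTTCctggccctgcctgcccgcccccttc
Hspe1, chr9:64084256-64084285, plus strand: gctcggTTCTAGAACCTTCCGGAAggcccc
The Hspe1 stretch is also that of Hspd1, which lies on the other strand and reads it as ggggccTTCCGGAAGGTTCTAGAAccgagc. No pair of facing units was present in the windows of Hsp90ab1, Hspa4l and Hsf2.

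Several arrays stood apart in ways the groups do not describe. In drug 3 and control 2 the X-linked RNA Xist was low, at 3.05 and 2.65 log2 signal, and the Y-linked Eif2s3y high, at 7.17 and 6.99. In the other 7 arrays, all 3 model arrays among them, Xist was at 8.06 to 10.89 and Eif2s3y at 2.53 or less, although all rats were labelled male. These 7 arrays are the ones at odds with the label, and the 2 patterns were not balanced over the groups. The Gapdh 3' to 5' signal ratio, which is higher where less of the 5' end of the RNA was measured, was 1.31, 9.20 and 8.71 in drug 1, 2 and 3, against 4.09, 12.7 and 9.77 in model 1, 2 and 3, and it stayed at 1.52, 3.14 and 3.07 in control 1, 2 and 3. The ratios of the model arrays were all above those of the control arrays (exact permutation test, two-sided, p = 0.1, or 0.6 adjusted over 6 tests), and 3 against 3 arrays cannot give a smaller p than this. The trimmed mean of the deposited signals lay between 33.2 and 80.4, so all values below are log2 signals after quantile normalization. The hepatocyte markers were bright in every array, with Alb at percentile 100 of all probe sets and Apoa1 at percentile 99.5.

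**Figure D1:**
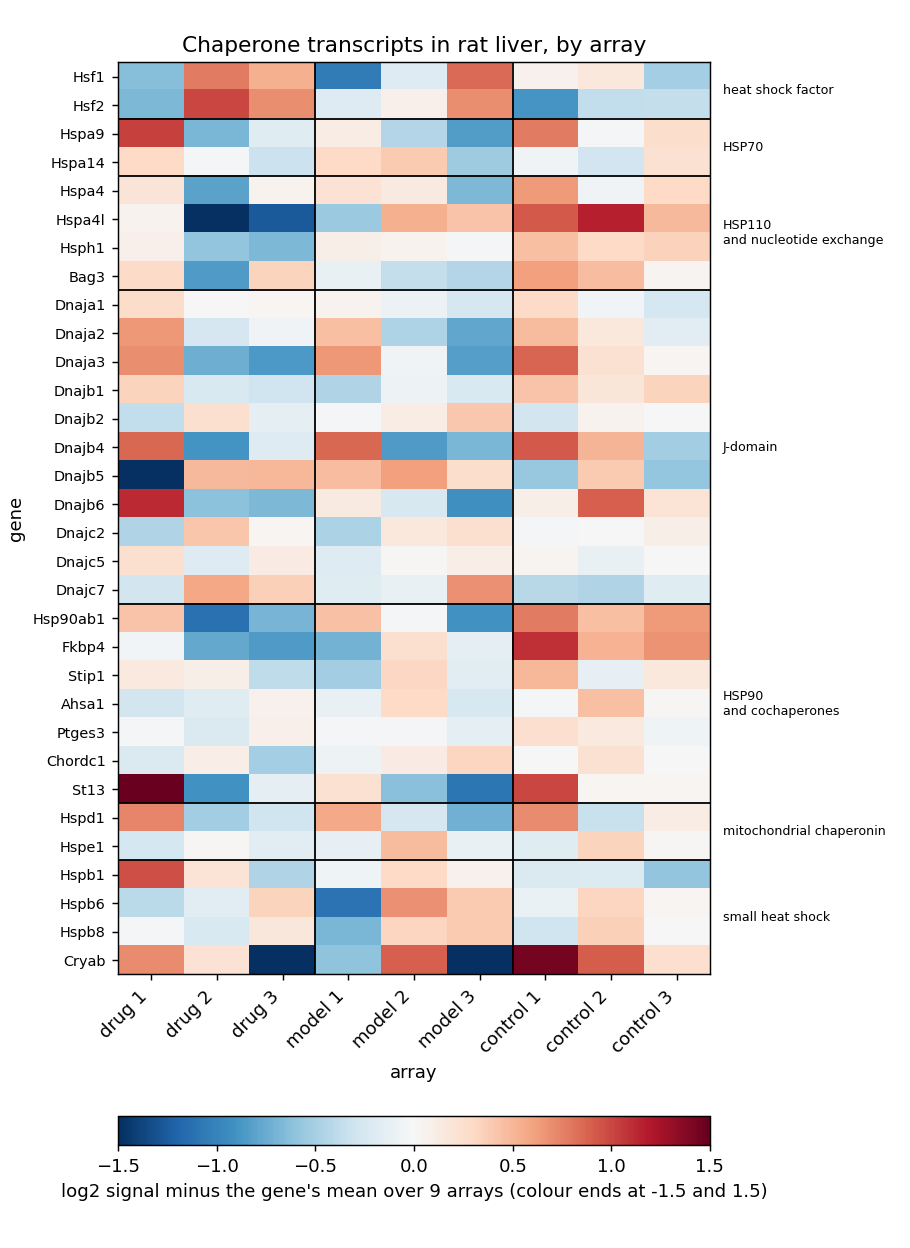
Each row is 1 of the 32 chaperone genes, each column 1 of the 9 arrays, and the colour is the log2 signal minus the mean of that gene over the 9 arrays. Genes are grouped by role, with drug arrays on the left, model arrays in the middle and control arrays on the right, and the HSP110 and HSP90 blocks are mostly red in the control columns.

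The model livers were compared with the control livers to see how the 2 groups differ. Of the 32 chaperone genes, 24 had a lower mean in the model livers, and their median log2 difference was -0.23, whereas 48.9% of all probe sets were lower, with a median of 0.02. No chaperone gene passed an adjusted p under 0.05 in the limma fit over 18625 probe sets, and of all probe sets 0% did. At an unadjusted p under 0.05, 2 of the 32 were lower, Fkbp4 and Dnajb1, against 5.54% of all probe sets, and 0 were higher, against 6.51%. The arrays of both groups did not overlap, with the model arrays below, in 5 of the 32, Fkbp4, Dnajb1, Bag3, Hsp90ab1 and Hsph1, against 10.9% of all probe sets. Model arrays lay above all control arrays in 2 of the 32, Hsf2 and Hspb1, against 11.8%. These counts lie near the shares over all probe sets. The number of lower chaperone genes was 29 without normalization, 27 with median centring and 21 with scaling to 1 trimmed mean. Over all probe sets the median itself moved, to -0.40, -0.07 and 0.16 under these scalings. A lower signal in whole liver can come from fewer cells of a type or from less RNA per cell, which cannot be told apart here.

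Other measures differed between the same groups. With a term for the log2 Gapdh ratio in the fit, the chaperone median was -0.05 with 17 of 32 genes lower. All model arrays had higher Gapdh ratios than all control arrays. In model against control the ratio and the group therefore cannot be told apart, here and in the values with this term below. Without drug 3 and control 2 the chaperone median was -0.26. Neutrophil markers were higher in the model livers in 3 of 3 genes tested of 4 listed, with a median log2 difference of 2.59, and their mean log2 level was 6.34 to 7.88 in model arrays against 4.35 to 5.50 in control arrays. Macrophage markers were higher in 4 of 6 tested of 8 listed. Their mean level, 6.97 to 7.99 in model arrays, overlapped that in control arrays, 6.28 to 7.09. Endothelial markers were higher in 3 of 4 tested and T cell markers in 4 of 4, with medians of 0.54 and 0.58. The mean T cell level was 3.82, 4.18 and 3.77 in model 1, 2 and 3. In control 1, 2 and 3 it was 4.07, 1.87 and 4.08, so the groups overlapped and only control 2 was low. Erythroid markers were lower in 3 of 3 tested, with a median of -0.93. The part of these cells in the chaperone values was not tested.

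Drug livers were next set against model livers. Whether these groups differ by 7-P alone is not stated in the sources used here. Here the 32 genes divided almost evenly, 14 lower and 18 higher in the drug livers, where 52.1% of all probe sets were lower. The median of the 32 genes was 0.05 against -0.02 over all probe sets. Without normalization, with median centring and with scaling to 1 trimmed mean the lower genes numbered 9, 13 and 15. Over all probe sets the median was 0.06 without normalization and 0.02 with median centring. Adjusted p-values were 0.998 for all 32 genes in the limma fit, and of all probe sets 0% passed. No chaperone gene had an unadjusted p under 0.05 in either direction, while 1.8% of all probe sets were lower and 1.47% higher at that limit. None had drug arrays wholly below or above the model arrays, against 4.7% of all probe sets below and 3.35% above. Endothelial markers were lower in the drug livers in 4 of 4 genes tested of 5 listed, with a median of -0.70, and neutrophil markers in 3 of 3, with -1.90. The mean neutrophil level was 4.58, 7.54 and 5.09 in drug 1, 2 and 3, so that drug 2 lay within the model range of 6.34 to 7.88. The part of both cell types in the chaperone values was not tested.

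The comparison of drug with control livers asks how far the treated animals stood from the control animals. It shares its 3 control arrays with the comparison of model and control, so both can lean the same way through those arrays alone. In the drug livers 24 of 32 chaperone genes were lower than in control livers, beside 51.5% of all probe sets. The median of the chaperone genes was -0.20 against -0.02 over all probe sets. None passed at an adjusted p under 0.05, as with 0% of all probe sets, and adjusted p-values ran between 0.676 and 0.993 (limma). At an unadjusted p under 0.05 there were 4 lower genes, Fkbp4, Hspa4l, Hsph1 and Hsp90ab1, where 3.03% of all probe sets were lower, and 0 higher genes, where 4.19% were higher. In those same 4 genes every drug array lay below every control array, against 6.49% of all probe sets, and in 0 genes above, against 6.05%. Both counts of lower genes are a larger share of the 32 than of all probe sets, but the list itself was not tested. The number of lower genes was 29 without normalization, 25 with median centring and 24 with scaling to 1 trimmed mean. Without normalization and with median centring the median over all probe sets was itself lower in the drug livers. With the Gapdh term the median was -0.19, and 21 of 32 were lower. Without drug 3 and control 2 it was -0.22. Erythroid markers were lower in the drug livers in 3 of 3 genes tested, with a median of -1.22, and endothelial markers in 3 of 4, with -0.26. Macrophage markers were higher in 5 of 6, with 0.57, and neutrophil markers in 3 of 3, with 0.93. What part these cells had in the chaperone values was not tested.

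A moderated F test for any difference between the 3 groups gave 0 chaperone genes at an adjusted p under 0.05, as it did for 0% of all probe sets. At an unadjusted p under 0.05 it gave 3 of the 32, against 7.45% of all probe sets.

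**Figure D2:**
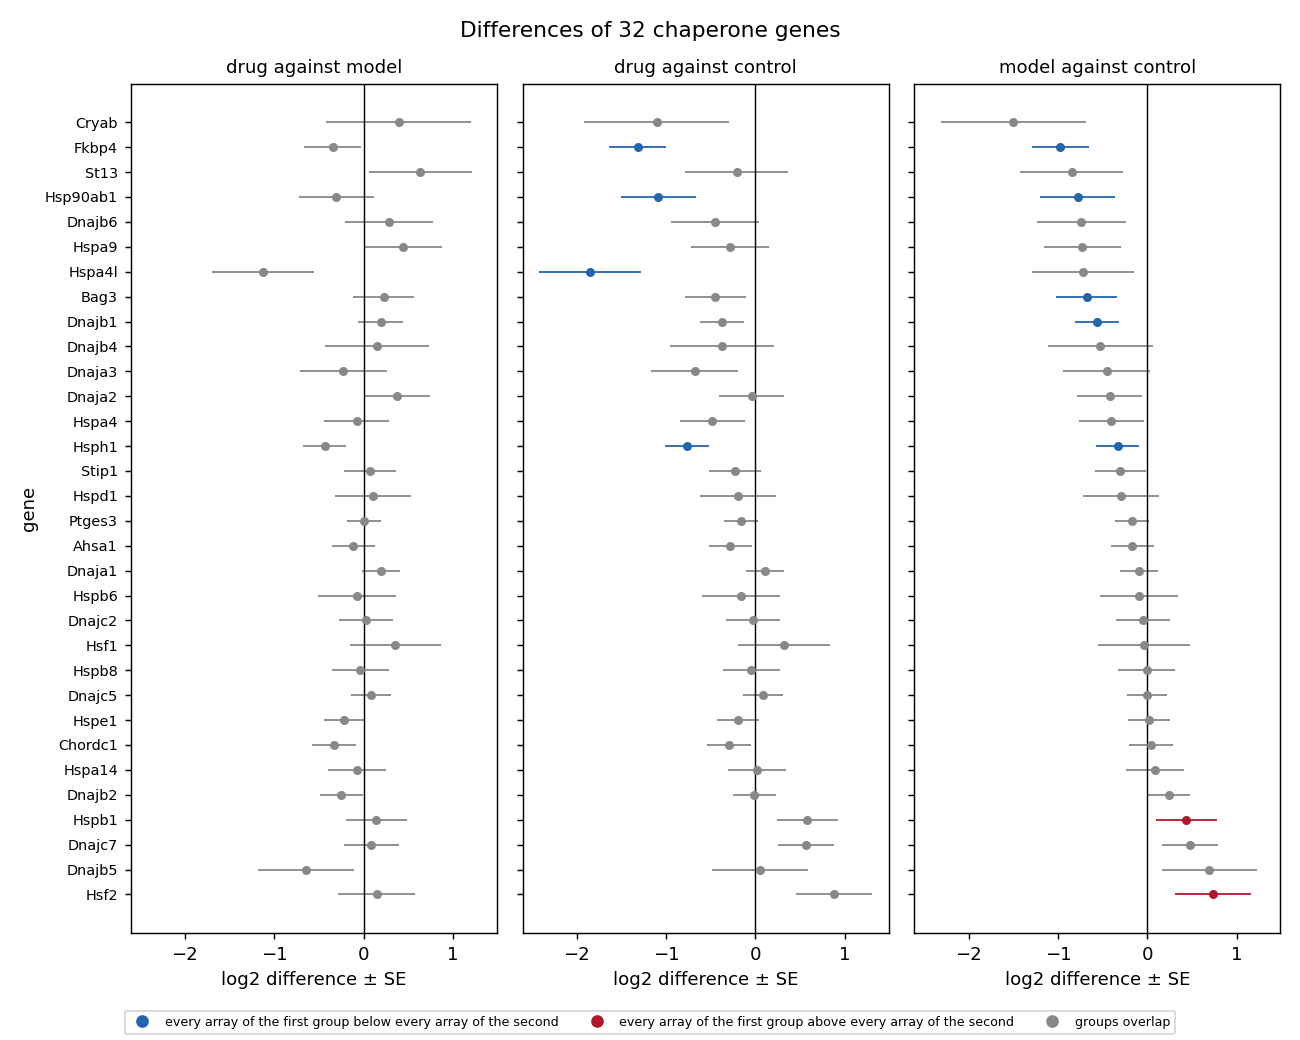
Log2 differences of the 32 genes with their limma standard errors, in drug against model (left), drug against control (middle) and model against control (right), sorted by the last. Blue and red points are genes in which every array of the first group lies below or above every array of the second: 0 genes in the left panel, 4 blue in the middle, and 5 blue with 2 red in the right.

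Of the heat shock factors, Hsf1, which drives the heat shock response, lay between 3.93 and 5.82 over the 9 arrays without separating the groups, with differences of -0.03 in model against control and 0.32 in drug against control. Hsf2, a related factor that is less tied to heat and has roles in development, measured 6.52, 8.19 and 7.90 in drug livers, 7.01, 7.28 and 7.90 in model livers and 6.31, 6.83 and 6.84 in control livers. All model arrays were above all control arrays, and of the drug arrays 2 were above them while drug 1 was within their range. Its log2 difference was 0.73 ± 0.426 in model against control (SE, limma adjusted p = 0.48) and 0.88 ± 0.426 in drug against control (adjusted p = 0.685). The 3 further probe sets of Hsf2 gave 0.81, -0.48 and 0.08 in model against control, and the Gapdh term turned the value above to -0.12.

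The HSP70 proteins with a usable probe set were few. Hspa9, the HSP70 of the mitochondrial matrix that also pulls proteins in through the inner membrane, lay at 9.30, 7.59 and 8.10 in drug livers, 8.38, 7.83 and 7.44 in model livers and 9.05, 8.25 and 8.54 in control livers, and the groups overlapped. Its difference was -0.73 in model against control, where its further probe sets gave -1.81 and 0.93. Hspa14, which works on nascent chains at the ribosome, was within 0.1 log2 units of control in both other groups, at 0.09 and 0.02.

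The HSP110 proteins and the exchange factor Bag3 were lower than control in 4 of 4 genes in both other groups, with median differences of -0.54 in model against control and -0.63 in drug against control. These directions held under each of the scalings tried. In model against control the medians were -0.99 without normalization, -0.66 with median centring and -0.43 with scaling to 1 trimmed mean. Over all probe sets they were -0.40, -0.07 and 0.16. In drug against control the median over all probe sets was also lower without normalization and with median centring. With the Gapdh term, 2 of 4 were lower in model against control, at a median of -0.13, and 4 of 4 in drug against control, at -0.42.

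Hsph1, the heat-inducible HSP110, whose promoter above carries a run of 3 units, had log2 signals of 7.49, 6.82 and 6.74 in drug livers, 7.50, 7.47 and 7.39 in model livers and 7.87, 7.72 and 7.77 in control livers. Neither drug nor model arrays reached the lowest control array, and within the model and control groups the arrays were close together, with SDs of 0.0587 and 0.0753 (n = 3 each). In drug against control the difference was -0.77 ± 0.243 (SE, limma adjusted p = 0.682), a 1.70-fold lower signal. It was -0.33 in model against control and -0.44 ± 0.243 in drug against model (adjusted p = 0.998). The other Hsph1 probe set was also lower in both, with -1.09 in model against control and -0.88 in drug against control. With the Gapdh term the value in model against control was 0.0087, and that in drug against control -0.58.

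Hspa4l, a close relative of Hspa4 best known from testis, measured 3.34, 1.53 and 2.03 in drug livers, 2.74, 3.82 and 3.72 in model livers and 4.21, 4.46 and 3.77 in control livers. Every drug array was below every control array, and 2 of the 3 drug arrays were below the model arrays too. This was the largest difference of the 32 genes, -1.85 ± 0.57 in drug against control (SE, limma adjusted p = 0.677). It lay between -2.36 and -1.47 with each array left out in turn and was -1.56 without drug 3 and control 2. However, Hspa4l was the dimmest of the 32 genes, with a mean signal at percentile 47.1 of all probe sets. Its deposited signals in drug 2 and drug 3 were 2.483 and 3.404, below the median signals of those arrays, 11.3 and 10.9. How much of the difference is noise at so dim a signal was not tested. Against the model livers the difference was -1.13 ± 0.57 (adjusted p = 0.998). Hspa4 itself lay between 4.98 and 6.42 in all arrays, with differences of -0.40 and -0.48 from control in model and drug livers.

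Bag3, which releases clients from HSP70 and hands them to autophagy, measured 6.69, 5.55 and 6.74 in drug livers, 6.30, 6.05 and 5.96 in model livers and 7.02, 6.87 and 6.44 in control livers. The model arrays lay below the control arrays with a narrow gap, while drug 1 and drug 3 lay within the control range and drug 2 below every other array. The difference was -0.68 ± 0.341 in model against control (SE, limma adjusted p = 0.438), or -0.31 with the Gapdh term. It was -0.45 in drug against control, and -0.06 there without drug 2.

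**Figure D3:**
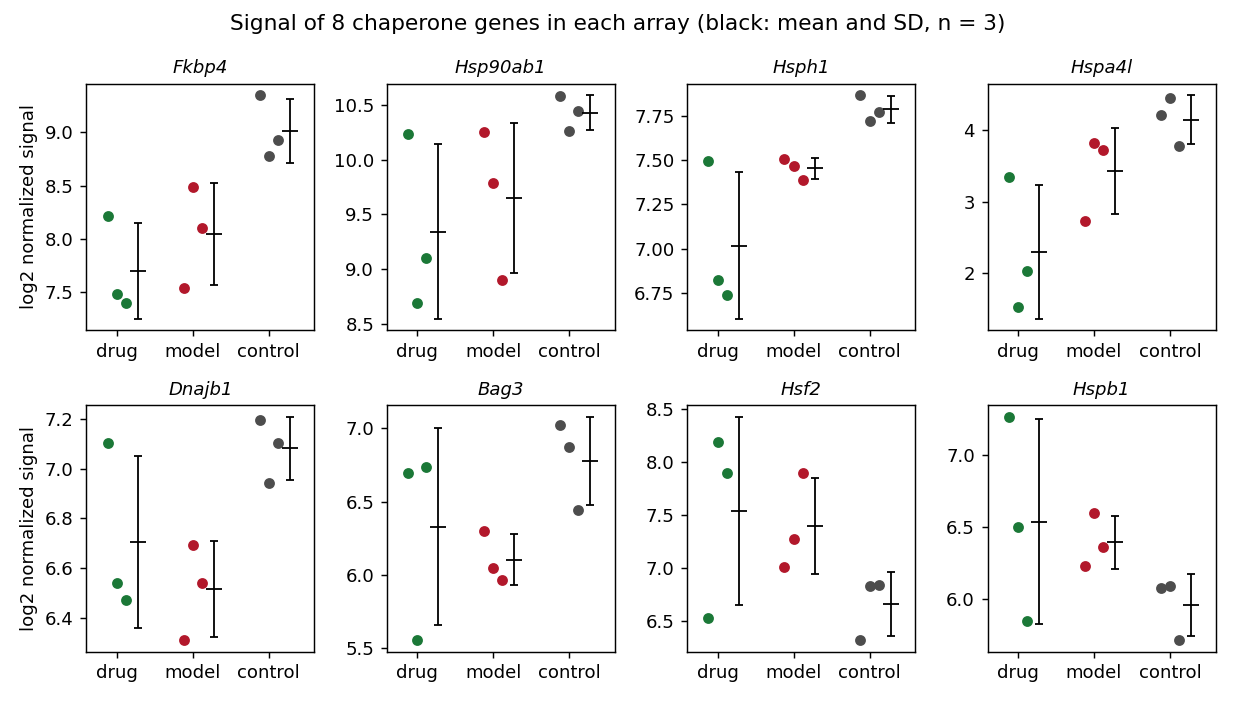
Log2 normalized signal of 8 chaperone genes, 1 dot per array, with the mean and SD of the 3 arrays of each group in black (drug left, model middle, control right). Drug arrays lie below all control arrays for Fkbp4, Hsp90ab1, Hsph1 and Hspa4l, model arrays below them for Fkbp4, Hsp90ab1, Hsph1, Dnajb1 and Bag3, and model arrays above them for Hsf2 and Hspb1. The vertical axes do not start at 0 and differ between genes.

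Among the 11 J-domain genes, 8 were lower in model than in control livers and 7 lower in drug than in control livers, with medians of -0.09 and -0.03. In model against control the J-domain median moved with the scaling, to -0.89 without normalization, -0.56 with median centring and -0.33 with scaling to 1 trimmed mean, beside -0.40, -0.07 and 0.16 over all probe sets, and to 0.08 with the Gapdh term. Dnajb1, the main heat-inducible J-domain partner of cytosolic HSP70, stood at 7.10, 6.54 and 6.47 in drug livers, 6.31, 6.69 and 6.54 in model livers and 7.20, 6.94 and 7.10 in control livers. The model arrays were all below the control arrays, and so were 2 of the drug arrays. Its difference was -0.57 ± 0.247 in model against control (SE, limma adjusted p = 0.41), a 1.48-fold lower signal, and a further probe set gave -1.20. In drug against control it was -0.38.

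Dnajb5, a less studied J-domain protein, was at 3.13, 5.17 and 5.19 in drug livers, 5.15, 5.30 and 4.95 in model livers and 4.13, 5.08 and 4.12 in control livers. Its difference of -0.64 ± 0.536 in drug against model (SE, limma adjusted p = 0.998) rested on drug 1, and was 0.04 without that array. Dnajc7, which carries TPR repeats that bind HSP70 and HSP90, measured 6.77, 7.62 and 7.40 in drug livers, 6.86, 6.93 and 7.73 in model livers and 6.62, 6.59 and 6.86 in control livers. The groups overlapped through drug 1, with a difference of 0.57 ± 0.311 in drug against control (adjusted p = 0.704).

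The other J-domain genes gave ranges over the 9 arrays and no separation of groups. Dnaja1, a heat-inducible cytosolic member, lay between 8.69 and 9.24, and Dnaja2, its constitutive relative, between 6.74 and 8.17. Dnaja3, the mitochondrial member, spanned 5.62 to 7.36 and differed by -0.68 in drug against control and -0.45 in model against control. Dnajb6, which keeps aggregation-prone proteins soluble, spanned 5.21 to 7.24, with -0.74 in model against control. Dnajb4 spanned 4.57 to 6.39, Dnajb2 7.19 to 7.97, Dnajc2, the ribosomal partner of Hspa14, 4.94 to 5.83, and Dnajc5, known from synaptic vesicles, 6.43 to 6.87.

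Of the 7 tested members counted as HSP90 and cochaperones, 6 were lower than control in the model livers, with a median of -0.30. In the drug livers 7 of 7 were lower, with a median of -0.28. Further probe sets of Hsp90ab1 and St13 were higher in model against control, and that of St13 also in drug against control. All 7 were lower in drug against control under each of the scalings tried. The median over all probe sets was lower there too without normalization and with median centring. With the Gapdh term the median of the 7 genes in drug against control was -0.34, with 6 of 7 lower. In model against control that term gave a median of -0.10, with 5 of 7 lower. In drug against model the median was -0.11, with 4 of 7 lower. Related HSP90 genes and partners outside the 38 genes went both ways. In model against control Fkbp5, Ppid, Unc45a and Sugt1 were higher, at 0.81, 0.60, 0.45 and 0.14. Cdc37, Trap1, Ppp5c and Stub1 were lower there, at -0.96, -0.80, -0.49 and -0.29. In drug against control Fkbp5, Ppid, Sugt1 and Stub1 were higher, and Unc45a, Cdc37, Trap1 and Ppp5c lower.

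Fkbp4, the immunophilin that joins HSP90 on steroid receptors, measured 8.21, 7.49 and 7.40 in drug livers, 7.54, 8.49 and 8.10 in model livers and 9.35, 8.77 and 8.92 in control livers. All drug arrays and all model arrays lay below all control arrays. It had the smallest p of the 32 genes in both comparisons with control. The difference was -0.97 ± 0.318 in model against control (SE, limma adjusted p = 0.384), a 1.96-fold lower signal, and -1.32 ± 0.318 in drug against control (adjusted p = 0.676), a 2.49-fold lower signal. With each array left out in turn these lay between -1.20 and -0.72 and between -1.56 and -1.13, and with the Gapdh term they were -0.75 and -1.19. Without drug 3 and control 2 they were -1.09 and -1.28. Against the model livers the drug livers differed by -0.34 ± 0.318 (adjusted p = 0.998), and those arrays overlapped.

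Hsp90ab1 is known as the constitutive cytosolic HSP90, but it was counted in the heat-inducible list. It lay at 10.23, 8.69 and 9.11 in drug livers, 10.25, 9.79 and 8.91 in model livers and 10.58, 10.26 and 10.45 in control livers. The control arrays were close together and above all others, but drug 1 and model 1 came within a small step of the lowest of them, and the spread was far wider in the drug and model groups, with SDs of 0.796 and 0.685 against 0.162 in the control group (n = 3 each). Its difference was -0.78 ± 0.421 in model against control (SE, limma adjusted p = 0.455) and -1.09 ± 0.421 in drug against control (adjusted p = 0.683). A further probe set of the same gene gave 0.34 and -0.07, and with the Gapdh term the difference in model against control was 0.0015. Without model 3 that difference was -0.41, and without model 1 it was -1.08. Drug 1 and model 1 were also the arrays with the lowest Gapdh ratio of their groups.

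St13, which holds HSP70 in its client-bound state, ranged widely, at 9.16, 6.77 and 7.54 in drug livers, 7.91, 7.06 and 6.60 in model livers and 8.68, 7.71 and 7.71 in control livers. Its difference in drug against model, 0.64 ± 0.578 (SE, limma adjusted p = 0.998), rested on drug 1, and was -0.03 without that array. In model against control it was -0.85 and in drug against control -0.21. A further probe set of St13 had the opposite sign in all comparisons. It gave -0.12 in drug against model, 0.48 in model against control and 0.36 in drug against control. Chordc1, a heat-inducible HSP90 partner, stood at 6.15, 6.48 and 5.86 in drug livers, 6.30, 6.50 and 6.70 in model livers and 6.38, 6.61 and 6.38 in control livers. The groups overlapped, with -0.34 ± 0.246 in drug against model (adjusted p = 0.998). The differences of the remaining cochaperones were small. Stip1, which bridges HSP70 and HSP90, Ahsa1, which speeds the HSP90 ATPase, and Ptges3, which holds HSP90 closed on its client, differed from control by -0.30, -0.17 and -0.17 in model livers and by -0.23, -0.28 and -0.16 in drug livers.

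Hspd1 and Hspe1 form the chaperonin of the mitochondrial matrix and their windows share the stretch shown above, which lies within the annotated span of Hspd1. Hspd1 measured 10.46, 9.20 and 9.42 in drug livers, 10.29, 9.47 and 9.0 in model livers and 10.43, 9.39 and 9.83 in control livers. Hspe1 was steadier, at 10.20, 10.49 and 10.30 in drug livers, 10.34, 10.94 and 10.35 in model livers and 10.28, 10.80 and 10.48 in control livers. The groups overlapped for both. The 3 arrays with the highest Hspd1 signal, drug 1, model 1 and control 1, were among the 4 with the lowest Hspe1 signal. Model livers differed from control livers by -0.30 for Hspd1 and 0.02 for Hspe1. Drug livers differed from model livers by 0.10 and -0.21, and from control livers by -0.19 and -0.20. The values of Hspd1 in all 3 comparisons, and that of Hspe1 in model against control, changed sign in at least 1 of the alternatives tried.

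Of the 4 small heat shock proteins, which hold unfolded proteins in reserve without ATP, Hspb1 stood against the trend. It measured 7.27, 6.50 and 5.85 in drug livers, 6.23, 6.59 and 6.36 in model livers and 6.07, 6.09 and 5.71 in control livers. The model arrays were all above the control arrays, while drug 3 fell within the control range. Its difference was 0.44 in model against control and 0.58 in drug against control, and with the Gapdh term 0.87 and 0.82. In drug against control it was 0.21 without drug 1, 0.94 without drug 3 and 0.99 without drug 3 and control 2.

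Cryab, abundant in muscle and lens, had the widest spread of the group, at 4.58, 4.09 and 2.22 in drug livers, 3.27, 4.76 and 1.68 in model livers and 5.30, 4.78 and 4.12 in control livers. The groups overlapped, and the difference of -1.50 ± 0.811 in model against control (SE, limma adjusted p = 0.456) lay between -2.27 and -0.72 with each array left out in turn. In drug against control it was -1.11, and -0.38 without drug 3 and control 2. In control 1, where Cryab was highest, the muscle markers Mb and Acta1 were at 5.88 and 5.09, and the 6 muscle markers averaged 3.15 there, 2.16 in control 3 and 0.691 to 1.27 elsewhere. None of the 6 passed the filter, and their part in the Cryab values was not tested. Hspb6, also abundant in muscle, and Hspb8, the partner of Bag3, did not separate the groups, with -0.09 and -0.01 in model against control. A further probe set of Hspb8 gave -1.52 in model against control and -1.67 in drug against control.

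The heat-inducible genes were also read array by array. Those tested were Hsph1, Bag3, Dnaja1, Dnajb1, Dnajb4, Hsp90ab1, Stip1, Ahsa1, Chordc1, Hspd1, Hspe1, Hspb1 and Cryab. The median deviation of the 13 tested heat-inducible genes from their 9-array mean was 0.29, -0.18 and -0.30 in drug livers, -0.07, 0.05 and -0.24 in model livers and 0.45, 0.30 and 0.04 in control livers. Drug 1 and control 1, which had the lowest Gapdh ratios, had 2 of the 3 highest values. Control 1 was the highest of the 9 arrays for 12 of the 32 chaperone genes, and for 11.7% of all probe sets. Leaving out drug 1 and control 1 together gave a chaperone median of -0.17 for model against control, -0.04 for drug against model and -0.28 for drug against control. The 13 heat-inducible genes and the other 19 had medians of -0.30 and -0.09 in model against control, and -0.29 and -0.05 in drug against control. In model against control they were -0.045 and -0.049 with the Gapdh term, and -0.30 and -0.27 over 13 and 16 genes when each gene was the average over all of its probe sets. The difference between the 2 lists was not tested.

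**Figure D4:**
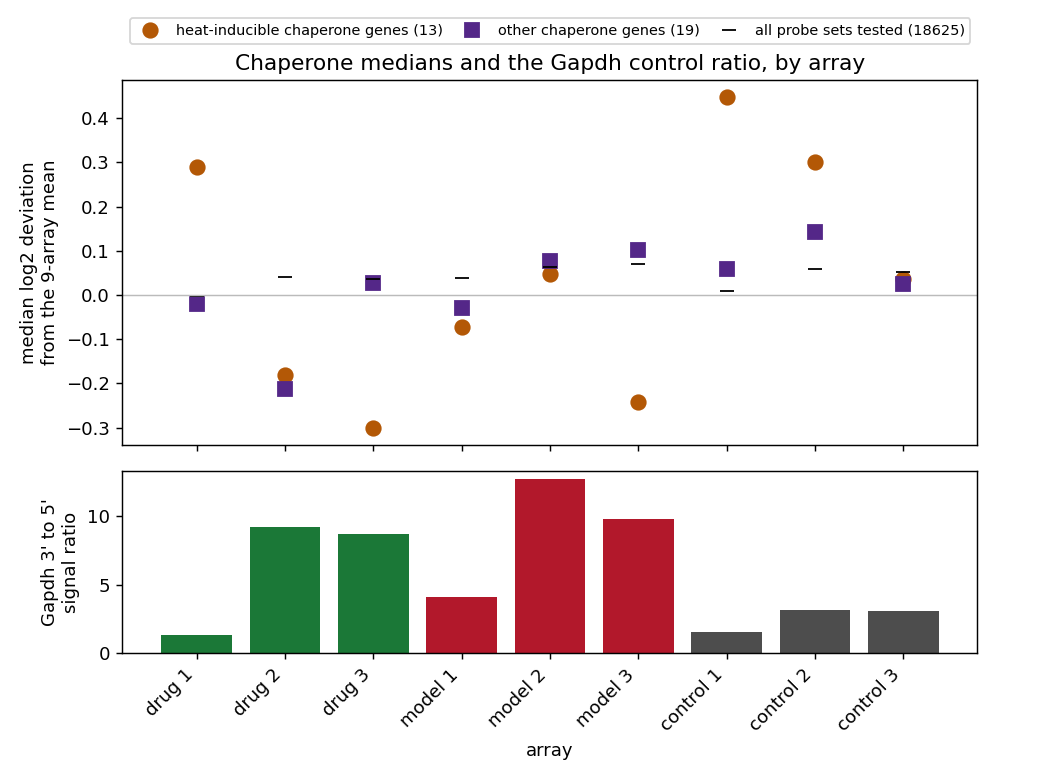
Upper panel: median log2 deviation from the 9-array mean of the heat-inducible chaperone genes (circles), the other chaperone genes (squares) and all probe sets tested (dashes), in each array. Lower panel: the Gapdh 3' to 5' signal ratio of the same array. Drug 1 and control 1 have the smallest bars, at 1.31 and 1.52, and circles at 0.29 and 0.45.

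Related chaperones outside the 38 genes were counted for comparison. All 8 subunits of TRiC, the cytosolic chaperonin that folds actin and tubulin, were lower than control in the model livers, with a median of -0.43, and in the drug livers, with -0.28. Of all probe sets 48.9% and 51.5% were lower. The smallest differences among the 8 were -0.0036 and -0.03. In model against control the TRiC median was -1.05 without normalization, -0.72 with median centring and -0.49 with scaling to 1 trimmed mean. Over all probe sets it was -0.40, -0.07 and 0.16. None of the 8 had an unadjusted p under 0.05, and with the Gapdh term 4 of 8 were lower in model against control, at a median of 0.01. Cct5 and Cct2, the subunits with the smallest p in model against control, differed by -0.45 and -0.77 there.

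Of 24 other cytosolic and mitochondrial chaperone genes, 16 were lower in model than in control livers, with a median of -0.39, and 17 lower in drug than in control livers, with -0.27. In model against control 5 were lower and 1 was higher at an unadjusted p under 0.05, against 5.54% and 6.51% of all probe sets, and 0 passed after adjustment (limma). Hspbp1, which drives nucleotide exchange on HSP70, measured 5.51, 4.29 and 4.56 in drug livers, 4.54, 4.39 and 4.54 in model livers and 6.10, 5.62 and 5.52 in control livers. All drug and model arrays were below all control arrays, with a difference of -1.25 ± 0.344 in model against control (SE, limma adjusted p = 0.384). Hspa13, an HSP70 relative found in microsomes that was counted in this list, was at -1.12 ± 0.411 (adjusted p = 0.394). The inducible HSP70 gene Hspa1a, the near-identical copy of the unmeasured Hspa1b, lay at 3.77, 3.81 and 4.79 in drug livers, 3.79, 4.41 and 4.13 in model livers and 5.29, 4.80 and 4.40 in control livers, and was named after its values were seen. Its signal may include transcripts of Hspa1b, and its differences from control, -0.72 in model and -0.70 in drug livers, had adjusted p-values of 0.453 and 0.703.

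The 15 chaperones of the endoplasmic reticulum, which answer to another stress pathway, were counted too. In model against control 7 of 15 were lower, with a median of 0.03. It was -0.69 without normalization, -0.36 with median centring and -0.13 with scaling to 1 trimmed mean. Over all probe sets the medians under these scalings were -0.40, -0.07 and 0.16. In drug against model 12 of 15 were lower, with -0.26. Manf, a secreted factor of that response, was the lowest in p among them, at -0.66 ± 0.224 in drug against model (SE, limma adjusted p = 0.998). In drug against control the median of the 15 was -0.24, with 12 of 15 lower, beside -0.20 and 24 of 32 for the chaperone genes above.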

How the data were processed

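The values used were the signal intensities deposited by the authors, 1 linear intensity per probe set and array, from biotin-labelled total RNA of 9 rat livers. They were made with GCOS 1.2, per the submitters' processing notes, and the sources used here do not state its settings or any scaling. The table held 31099 probe sets, and 57 control probe sets were left out. Of the other 31042, the platform annotation gave 1 gene symbol for 20826, several for 436 and none for 9780, and 20758 of the single-gene probe sets matched the rat gene table by Entrez identifier. Those with several symbols entered the fit without being named.

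The log2 signals were quantile normalized, which removes any true difference in total RNA, and probe sets at or above the 40th percentile of mean signal, 18625 in all, were kept. Groups were those of the sample labels, with 3 rats each. All 9 arrays entered 1 linear model per probe set with a term for each group, fitted with limma 3.58.1 in R 4.3.3 (lmFit, then eBayes with its trend option). Tests were two-sided and p-values Benjamini-Hochberg adjusted over all 18625 probe sets at 0.05. The fit was tested on simulated data. With 3 arrays a group an exact permutation test cannot give a p under 0.1 and the small number of arrays is one limit on precision. Signals were not compared between genes.

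Full statistics are given for the 6 chaperone genes with the smallest unadjusted p in each comparison, values in every array for these and for Hspb1, Hsph1, Dnajb1, Hspd1, Hspe1, Bag3 and Cryab, the reference genes of the heat shock response that had a usable probe set, and up to 2 genes from each list of related chaperones. Values of the other members, of Hspa1a and of the HSP90 genes and partners outside the 38 genes were added after they were seen. The members, the lists of related genes and markers, the normalization and the alternatives were chosen with earlier results of these data known. Alternatives were no normalization, median centring, scaling to 1 trimmed mean (2% trimmed at each end), an offset of 16 signal units, a filter at the 60th percentile or none, eBayes without its trend, weights per array, a fit of only the 2 groups compared, the replicate number as a block, a term for the log2 Gapdh ratio, the arrays that stand apart left out or given a term, each array left out in turn, and each gene taken as the average over all of its probe sets. Promoters were taken from RefSeq, assembly GRCr8, and 29 of the 38 members matched.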

Additional observations from a re-analysis of the deposited data

How the results depend on the processing

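No chaperone gene passed an adjusted p under 0.05 in any of the 25 settings, and between 0 and 7 had an unadjusted p under 0.05 in model against control, 0 to 4 in drug against model and 2 to 9 in drug against control. The count of all probe sets past the threshold, 0 as reported, was 4 with array weights and 1 without normalization in model against control. It was 1 in each of model against control, drug against model and the F test without drug 1 and control 1, 1 in drug against model with only the 2 groups compared, and 1 in the F test without normalization. With each array left out it was 0 to 1 in these 3 tests. Deviations from the group means were correlated between arrays of different groups. For same-numbered arrays r was 0.195, -0.00522 and 0.168 in model against control. It was 0.389, 0.0816 and 0.182 in drug against model, and 0.482, 0.0397 and 0.0626 in drug against control. For arrays of different numbers r lay between -0.218 and 0.0922, between -0.368 and 0.305 and between -0.36 and 0.324 in these comparisons. Whether arrays of the same number share a handling step was not tested. With the replicate block 3 probe sets passed in model against control and 0 chaperone genes. The chaperone median moved with scaling. Without normalization it was -0.88 in model against control and -0.65 in drug against control, beside -0.40 and -0.36 over all probe sets, and with median centring -0.55 and -0.36, beside -0.07 in both. With the Gapdh term it was -0.047 in model against control, and with array weights -0.14 in drug against model. With each array left out it lay between -0.28 and -0.17 in model against control, -0.04 and 0.09 in drug against model and -0.30 and -0.11 in drug against control. Over the named genes, 12 alternative values changed sign in model against control (227 did not), 20 in drug against model (264 did not) and 3 in drug against control (281 did not). In model against control Hspe1 was -0.82 without normalization, -0.49 with median centring, -0.26 scaled to 1 trimmed mean, -0.22 with the Gapdh term, -0.11 without drug 1 and control 1, and -0.18 to 0.16 with each array left out. The Gapdh term also gave Hsp90ab1 0.0015, Hsf2 -0.12, Hsph1 0.0087 and Hspd1 0.55 there, Hspb1 -0.047 and Hspd1 -0.27 in drug against model, and Hspd1 0.28 in drug against control. In drug against model, array weights gave Dnajb1 -0.041, Cryab -0.75, Hspb1 -0.30 and Hspd1 -0.027. Without drug 1 and control 1, Dnajb5 was 0.044, St13 -0.034, Dnajb1 -0.0091, Cryab -0.077, Hspb1 -0.22 and Hspd1 -0.27 in that comparison. With each array left out, drug against model gave Dnajb5 -0.99 to 0.044, St13 -0.033 to 1.18, Dnajb1 -0.011 to 0.31, Cryab -0.39 to 1.16, Hspb1 -0.22 to 0.49 and Hspd1 -0.28 to 0.46, and drug against control gave Hspd1 -0.57 to 0.084. The cause of these shifts was not tested.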
